A study of Mus musculus with 6 samples.

Results

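Proteins that pass through the secretory pathway carry N-glycans, branched sugar chains held on asparagine. The mRNA levels of 10 Golgi enzymes that shape these chains were described in mouse bone marrow-derived macrophages (BMDMs) with and without CITED2, a transcriptional co-regulator. The genes were taken by symbol from the table of 22248 listed genes: Man1a, Man1a2, Man1c1, Man2a1, Man2a2, Mgat1, Mgat2, Mgat4a, Mgat4b and Mgat5. They were picked with the comparison of genotypes already known, so their differences are given as a description with no test. Each passed the minimum mean level of 1 FPKM (fragments scaled to transcript length and library size), and 11687 genes passed it in all.

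The control BMDMs carried 1 Cre allele in the myeloid Lyz2 locus (Lyz2cre), and the CITED2-deficient BMDMs carried the same allele with both Cited2 alleles floxed (Cited2fl/fl:Lyz2cre). Both groups were C57BL/6, were labelled as postnatal week 10 (the study's methods state another age), and were differentiated from bone marrow in culture with macrophage colony-stimulating factor (M-CSF). There were 3 total RNA libraries per genotype, all titled as control cultures. Cre made from the Lyz2 locus acts in macrophages and granulocytes, and Cited2 transcript persisted at a low level in the deficient cultures.

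Cited2 stood at 71.7, 79.3 and 75.5 FPKM in the control libraries and at 9.27, 7.22 and 7.53 FPKM in the deficient libraries, with groups apart as labelled (log2 fold change -3.09, limma adjusted p 6.57e-09). Fragment totals ran from 17289286 to 18952077 in control and from 22583995 to 26100410 in deficient libraries. All 8 macrophage markers listed (among them Csf1r, Adgre1 and Cd68) were detected, and their summed level was 5624 to 5694 FPKM in control and 5287 to 5367 FPKM in deficient libraries. Within that sum 5 markers were lower, 1 was higher and 2 did not pass. Fcgr1 went from 172 to 482 FPKM and Itgam from 89.7 to 50.9 FPKM, and Lyz2, the locus that carries Cre, went from 31.3 to 9.75 FPKM. All 10 tested fibroblast or stromal markers of 12 were higher in the deficient BMDMs. Their sum was 48.5 to 59.1 FPKM in control, 586 FPKM in deficient replicate 1 and 193 FPKM in each of the other deficient libraries, so that replicate 1 stood apart. No listed marker was at 0 in every library. The summed erythroid or megakaryocyte markers (313 to 342 FPKM in control and 74.7 to 85.3 FPKM in deficient libraries) were almost wholly Pf4, at a mean of 319.7 against 75.4 FPKM, while Itga2b was higher (2.90 against 4.08 FPKM) and the others stayed under 1 FPKM. Of 10 neutrophil precursor markers 7 were lower and 2 were higher, with groups apart for 9, although their sums overlapped (806 to 875 against 736 to 854 FPKM). Mpo went from 16.2 to 1.95 FPKM and Elane from 12.4 to 2.15 FPKM, and Ltf went from 94.3 to 177 FPKM. Of all tested genes, 34.6% were lower and 16.7% were higher (limma), and 59.9% had groups apart. The macrophage, stromal and neutrophil precursor marker counts are to be read against these shares and were not tested against them. Summed B cell, T cell, mast cell and dendritic cell markers each reached at most 7.66 FPKM in a library. The part of these other transcripts in the results was not tested, and in bulk RNA fewer cells of a type and less RNA per cell cannot be told apart.

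As background, the glycan that is attached to asparagine in the endoplasmic reticulum is rich in mannose. In the Golgi, alpha-mannosidase I enzymes (Man1a, Man1a2, Man1c1) trim mannose, MGAT1 adds the first N-acetylglucosamine (GlcNAc) branch, and alpha-mannosidase II enzymes (Man2a1, Man2a2) then trim further. MGAT2 adds the next branch, and MGAT4A, MGAT4B and MGAT5 build extra branches that can be lengthened and bound by galectins. Macrophage surface receptors and integrins are carriers of such complex chains.

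The RefSeq promoter table (GRCm38.p6, the assembly behind mm10) held 7 of the 10 genes: Man1a, Man1c1, Man2a1, Mgat1, Mgat2, Mgat4a and Mgat5. The windows of a gene that was lower (Man1c1) and of the branching genes that were higher (Mgat4a and Mgat5) in deficient BMDMs are shown, as the 250 bases before the annotated start, 5′ to 3′ on the gene's strand. Capitals mark GGGCGG or GCGTG on either strand.
Man1c1: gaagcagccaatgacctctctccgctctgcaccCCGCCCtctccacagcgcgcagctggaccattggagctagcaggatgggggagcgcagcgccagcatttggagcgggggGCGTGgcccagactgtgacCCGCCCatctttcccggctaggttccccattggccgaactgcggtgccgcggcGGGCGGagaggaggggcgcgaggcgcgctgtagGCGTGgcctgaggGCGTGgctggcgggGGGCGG
Mgat4a: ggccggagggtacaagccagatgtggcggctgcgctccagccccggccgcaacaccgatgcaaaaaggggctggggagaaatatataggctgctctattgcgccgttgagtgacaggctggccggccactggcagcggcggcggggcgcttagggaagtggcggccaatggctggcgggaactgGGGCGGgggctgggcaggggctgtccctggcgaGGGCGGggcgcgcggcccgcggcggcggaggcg
Mgat5: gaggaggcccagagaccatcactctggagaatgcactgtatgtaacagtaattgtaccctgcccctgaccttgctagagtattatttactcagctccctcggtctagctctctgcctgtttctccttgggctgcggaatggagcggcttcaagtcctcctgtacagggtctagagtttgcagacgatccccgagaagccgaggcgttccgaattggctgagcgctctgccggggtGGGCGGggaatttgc
These windows lie at chr4:134704291-134704540 (minus strand), chr1:37541017-37541266 (minus strand) and chr1:127204736-127204985 (plus strand), and no annotated gene span covers them. The Man1c1 and Mgat4a windows were rich in G and C (71.6% and 72.4%), against 56.0% for Mgat5. GGGCGG, the GC box, occurred 4 times before Man1c1, 2 times before Mgat4a and 1 time before Mgat5. Over both strands of the same length, it was present in 8 of the 10 windows that the table held for the 7 genes, at least 1 for each gene, and in 32.7% of all 32851 windows. A second Mgat4a window, at chr1:37536405-37536654 with 33.6% G and C, held none. GCGTG, a hypoxia response element core, was found in 4 of the 10 windows (28.2% of all windows) and 3 times before Man1c1, while the alternative core ACGTG was found in 0 of the 10 (16.6%). The interferon-stimulated response element core was in 0 of the 10 (2.98%), and the STAT element core TTCNNNGAA was in 1, that of Mgat2 (7.02%). These are matches of letters only, and the lower and the higher genes shared the GC box.

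Alpha-mannosidase II showed the widest gap. Man2a2 (ENSMUSG00000038886, chr7:80349097-80371375, minus strand) stood at 81.8, 79.1 and 80.1 FPKM in the control libraries and at 10.3, 10.7 and 9.77 FPKM in the CITED2-deficient libraries. The groups lay far apart, with the lowest control library 7.39-fold above the highest deficient library. The means were 80.3 ± 1.35 and 10.3 ± 0.469 FPKM (SD, n = 3), a 7.83-fold lower level and a log2 fold change of -2.85 (SE 0.05) on the log2(FPKM + 1) scale. Between 3201 and 3617 fragments lay behind each control value and between 566 and 612 behind each deficient value. In order of log2 fold change it was the fall ranked 4 of 11687 tested genes. Deficient replicate 1, which carried the most stromal transcript, had 10.3 FPKM, between the other deficient libraries, and the log2 fold change without it was -2.86. The other deficient libraries, at 193 FPKM of summed stromal markers each, also stood above the controls (48.5 to 59.1 FPKM). The part of stromal transcript in the Man2a2 difference was not tested.

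Its isoenzyme Man2a1 (ENSMUSG00000024085, chr17:64600736-64755110, plus strand) performs the same trimming. It stood at 58.9, 57.3 and 62.0 FPKM in control and at 57.1, 59.9 and 57.6 FPKM in deficient libraries. The groups overlapped. Its means were 59.4 ± 2.39 and 58.2 ± 1.5 FPKM (SD, n = 3), with a log2 fold change of -0.029 (SE 0.04) whose sign turned under quantile and median-ratio scaling and without control replicate 3. The pair therefore changed order: the ratio of Man2a2 to Man2a1 FPKM was 1.39, 1.38 and 1.29 in control and 0.180, 0.179 and 0.170 in deficient libraries. Man2a2 held 57.5 ± 0.982% of the summed alpha-mannosidase II FPKM in control and 15.0 ± 0.411% in deficient BMDMs (SD, n = 3). The sum itself was 140.7, 136 and 142 FPKM against 67.4, 70.6 and 67.3 FPKM, a mean 51.0% lower.

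Of the alpha-mannosidase I genes, Man1a and Man1c1 were lower and Man1a2 was higher in the deficient BMDMs. Man1c1 (ENSMUSG00000037306, chr4:134561690-134704290, minus strand) stood at 149.2, 156 and 159.5 FPKM in control and at 76.1, 80.1 and 85.9 FPKM in deficient libraries. The groups did not overlap, and the means of 155.0 ± 5.28 and 80.7 ± 4.95 FPKM (SD, n = 3) gave a 1.92-fold lower level and a log2 fold change of -0.93 (SE 0.05).

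Man1a (ENSMUSG00000003746, chr10:53904785-54076609, minus strand) stood at 149.9, 153 and 156 FPKM in control and at 88.7, 89.2 and 92.8 FPKM in deficient libraries. It too had groups apart, at 152.9 ± 2.89 and 90.2 ± 2.24 FPKM (SD, n = 3), 1.69-fold lower with a log2 fold change of -0.75 (SE 0.03). Man1a2 (ENSMUSG00000008763, chr3:100562208-100685503, minus strand) went the other way, from 36.0, 35.0 and 38.3 FPKM in control to 45.1, 42.6 and 45.0 FPKM in deficient libraries. Every deficient library was above every control library, with means of 36.5 ± 1.68 and 44.2 ± 1.43 FPKM (SD, n = 3) and a log2 fold change of 0.27 (SE 0.05).

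Summed over these 3 genes, alpha-mannosidase I was 335, 344 and 353 FPKM in control and 209.9, 212 and 224 FPKM in deficient libraries, a mean 37.5% lower. The share held by Man1a2 was 10.6 ± 0.367% in control and 20.6 ± 0.786% in deficient BMDMs (SD, n = 3), and the shares of Man1a and Man1c1 moved from 44.4% to 41.9% and from 45.0% to 37.5%. With fragments divided by coding length in place of the authors' length, the Man1a2 share was 5.98% in control and 12.3% in deficient BMDMs. That of Man1c1 was 56.2% and 49.7%, and that of Man1a was 37.8% and 37.9%, with no lower Man1a share in deficient BMDMs. Here and below, these fragments include those from untranslated parts of the transcripts, so coding length is another divisor and not a better one. The stacked levels by library show the mannosidase sums and the mix of isoenzymes side by side.

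**Figure D1:**
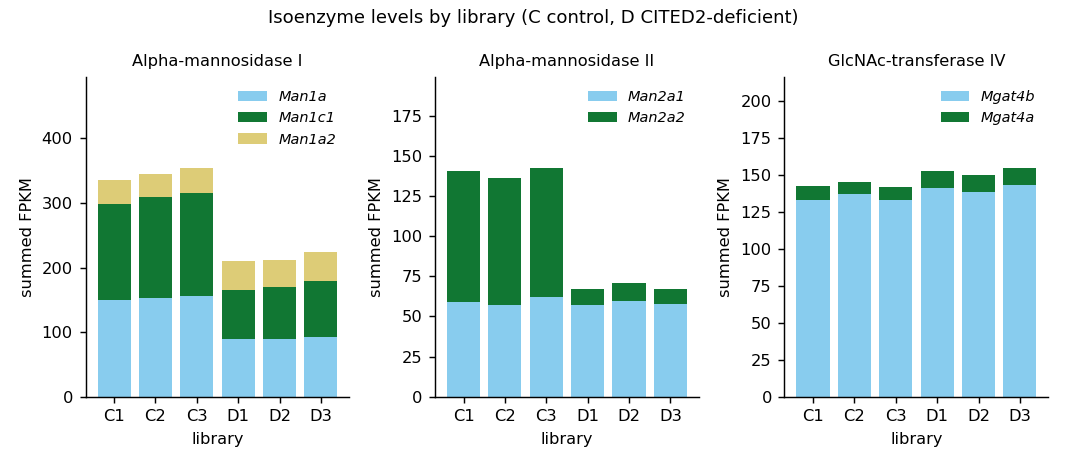
Summed FPKM (vertical axes, starting at 0) of the isoenzymes of alpha-mannosidase I, alpha-mannosidase II and GlcNAc-transferase IV in each control (C1 to C3) and CITED2-deficient (D1 to D3) library; colours mark the genes. The mannosidase II bars are 67.3 to 70.6 FPKM in the deficient libraries, with Man2a2 a thin part of each, and the GlcNAc-transferase IV bars are close in height in all 6 libraries.

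MGAT1 starts the hybrid and complex chains, and its gene differed little. Mgat1 (ENSMUSG00000020346, chr11:49244191-49263030, plus strand) stood at 144.0, 143.6 and 144.4 FPKM in control and at 128.9, 134.8 and 137.4 FPKM in deficient libraries. The deficient values lay below the tightly grouped control values, with means of 144.0 ± 0.361 and 133.7 ± 4.38 FPKM (SD, n = 3) and a log2 fold change of -0.11 (SE 0.03). The median over the 11687 genes was -0.10, and once scaled by median ratios the Mgat1 value was -0.0035. Mgat2 (ENSMUSG00000043998, chr12:69184157-69186770, plus strand), the gene of the next branching step, stood at 34.4, 35.7 and 37.5 FPKM in control and at 32.1, 33.2 and 35.0 FPKM in deficient libraries. The groups overlapped, the means were 35.9 ± 1.56 and 33.4 ± 1.48 FPKM (SD, n = 3), and the log2 fold change of -0.099 (SE 0.05) became 0.0015 after median-ratio scaling.

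The genes for the extra branches were level or higher in the deficient BMDMs. Mgat5 (ENSMUSG00000036155, chr1:127205015-127488336, plus strand), whose product makes the branch best known for galectin binding, stood at 28.7, 26.8 and 29.3 FPKM in control and at 42.3, 43.3 and 41.3 FPKM in deficient libraries. The groups were well apart, with means of 28.3 ± 1.27 and 42.3 ± 0.998 FPKM (SD, n = 3), a 1.5-fold higher level and a log2 fold change of 0.56 (SE 0.05).

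Mgat4a (ENSMUSG00000026110, chr1:37439340-37541016, minus strand) stood at 8.98, 8.04 and 8.95 FPKM in control and at 11.6, 11.9 and 11.4 FPKM in deficient libraries. Again all deficient libraries were above the control libraries, at 8.66 ± 0.534 and 11.6 ± 0.277 FPKM (SD, n = 3), 1.34-fold higher with a log2 fold change of 0.39 (SE 0.07). It rested on the fewest fragments of the 10 genes in the controls, 449 to 548 in a library.

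Mgat4b (ENSMUSG00000036620, chr11:50210890-50235103, plus strand), the abundant isoenzyme of the same step, stood at 133.3, 137.4 and 133 FPKM in control and at 141, 138.4 and 143.1 FPKM in deficient libraries. Its groups did not overlap but lay close, with means of 134.6 ± 2.49 and 140.8 ± 2.37 FPKM (SD, n = 3) and a log2 fold change of 0.065 (SE 0.03). Because Mgat4b held most of the Mgat4 level, the sum of both genes was 143 ± 1.96 FPKM in control and 152 ± 2.09 FPKM in deficient BMDMs (SD, n = 3), and the Mgat4a share was 6.05% and 7.63%, or 15.6% and 19.1% per coding length. The ratio of Mgat5 to Mgat1 FPKM was 0.196 ± 0.00836 in control and 0.317 ± 0.0145 in deficient BMDMs (SD, n = 3).

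**Figure D2:**
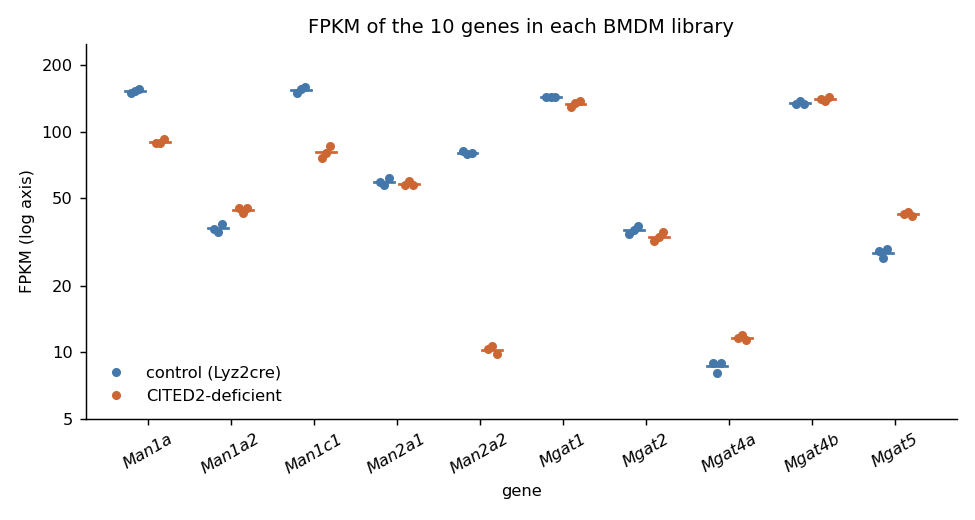
FPKM (vertical log axis) of the 10 genes, each point a library and each short line the mean of 3 libraries of control (Lyz2cre) or CITED2-deficient BMDMs. Man2a2 goes from place 5 of 10 to the lowest mean (80.3 to 10.3 FPKM), Man1a and Man1c1 are lower, and Man1a2, Mgat4a and Mgat5 are higher with no overlap of points.

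The levels of the 10 genes in the controls, per length on the FPKM scale, spanned from 8.66 FPKM for Mgat4a to 155.0 FPKM for Man1c1. In order they were Man1c1, Man1a, Mgat1, Mgat4b, Man2a2, Man2a1, Man1a2, Mgat2, Mgat5 and Mgat4a, where the library ranges of Man1c1 and Man1a, and those of Man1a2 and Mgat2, overlapped. In the deficient BMDMs the order was Mgat4b, Mgat1, Man1a, Man1c1, Man2a1, Man1a2, Mgat5, Mgat2, Mgat4a and Man2a2, and only Man1a2 and Mgat5 overlapped among neighbors in it. Man2a2 thus went from place 5 to place 10. The order depends on the length by which fragments were divided, which matched the mean over all annotated transcripts of a gene. That length was below the coding length for Mgat4b (1156 against 1647 bases) and Man1a2 (1817 against 1926 bases). It was also below it for Man2a2 (2340 against 3459 bases), Man2a1 (2776 against 3453 bases) and Mgat1 (1200 against 1344 bases). With coding length as the divisor, Man2a2 held 53.2% of alpha-mannosidase II in control and 12.9% in deficient BMDMs. The full order was not drawn up with that divisor and may differ.

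Across the 10 genes, 7 were past the adjusted threshold of 0.05 (limma) against 51.3% of all tested genes. Of these, 3 were higher (16.7% of all tested genes) and 4 were lower (34.6% of all tested genes), and the groups did not overlap for 8 (59.9% of all tested genes). Since the genes were picked on this contrast, nothing is read from these counts. Median-ratio scaling turned the split to 4 higher and 3 lower, with Mgat1 lost and Mgat4b gained, and for all tested genes it turned 1950 higher and 4044 lower into 2696 and 2490. Without deficient replicate 1, 6 of the 10 were past the threshold: Mgat1 had -0.081 and was no longer past it, and the log2 fold changes were -0.89 for Man1c1, -0.74 for Man1a, 0.26 for Man1a2, 0.39 for Mgat4a and 0.56 for Mgat5.

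**Figure D3:**
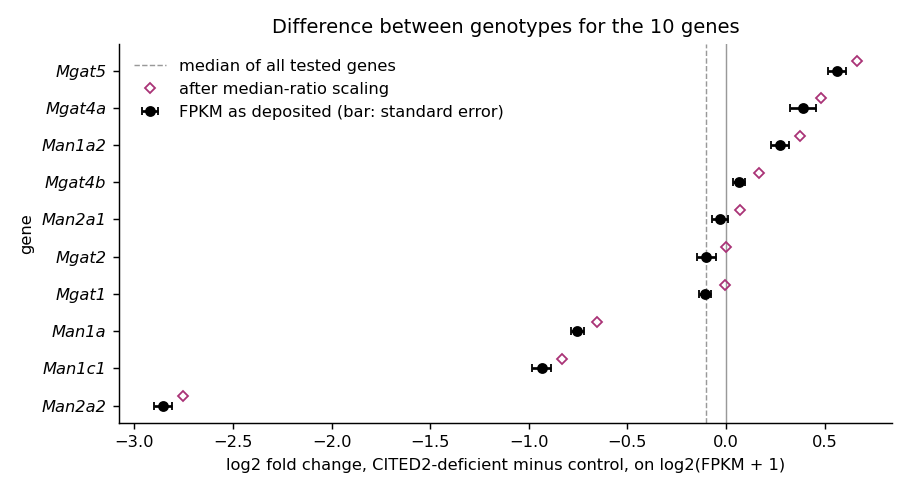
Log2 fold change, CITED2-deficient minus control, on log2(FPKM + 1) (horizontal axis) for each of the 10 genes (3 libraries per group). Points carry the standard error of the limma fit, whose variance draws on all tested genes. Open diamonds are values after median-ratio scaling, and the dashed line is the median of all tested genes. Man2a2 at -2.85 lies far from the rest, and Man2a1, Mgat1 and Mgat2 lie near 0 or near the dashed line and move across 0 or to it with the scaling.

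The isoenzymes are distinct at the sequence level. Their aligned coding sequences were 60.8% identical for Man2a1 and Man2a2, 61.2% to 64.0% for the pairs of alpha-mannosidase I genes and 64.4% for Mgat4a and Mgat4b. The longest run of identical bases between 2 isoenzyme transcripts was 30, for Man2a1 and Man2a2, and their open reading frames had 1150 and 1152 codons. The span of Man2a2 overlaps the end of Hddc3 on the other strand. Hddc3 stood at 0.666, 1.46 and 1.46 FPKM in control and at 2.73, 2.29 and 2.22 FPKM in deficient libraries. It was therefore low in level and higher in the deficient BMDMs, opposite to Man2a2 (log2 fold change 0.66, SE 0.17, adjusted p 0.0113). The kit marked strand, but the sources used here do not say whether the counting used it.

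The genes around Man2a2 were examined because position had no part in the choice of genes. Of 25 annotated genes within 250 kb of its span, 14 were tested, and 8 of them were lower, 1 was higher and 5 did not pass, with a median log2 fold change of -0.34 against -0.10 over all tested genes. The share of all tested genes that were lower is the 34.6% given above, and the count of neighbors was not tested against it. On 1 side the nearest genes were Fes, a tyrosine kinase of myeloid cells, and Furin, a proprotein convertase. Fes stood at 150.7, 147 and 152 FPKM in control and at 98.3, 98.4 and 98.5 FPKM in deficient libraries, a log2 fold change of -0.60 (SE 0.03, adjusted p 2.81e-07) with groups apart. Furin went from 75.5 ± 1.41 to 44.9 ± 3.40 FPKM (SD, n = 3; log2 fold change -0.74, limma adjusted p 4.94e-06). Farther away, Idh2, a mitochondrial isocitrate dehydrogenase, fell by 0.96 on the log2 scale (adjusted p 4.78e-06) and Sema4b, a semaphorin, by 1.04 (adjusted p 0.00024). The remaining lower genes were Blm at -0.81 (adjusted p 0.000862), Crtc3 at -0.49 (adjusted p 2.73e-05), Cib1 at -0.39 (adjusted p 0.000771) and Unc45a at -0.28 (adjusted p 0.00407). Gdpgp1, Rccd1, Ngrn, Vps33b and Prc1 did not pass, at -0.29, -0.28, 0.067, -0.028 and -0.026. Man2a2, at -2.85, was lower by more than any tested neighbor.

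**Figure D4:**
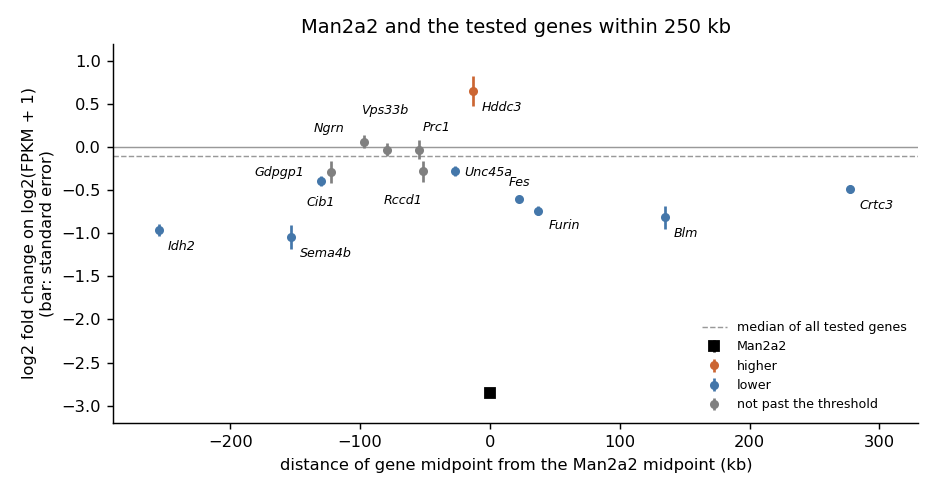
Log2 fold change on log2(FPKM + 1) with its standard error (vertical axis) for Man2a2 (square) and the 14 tested genes within 250 kb of its span, by distance of gene midpoints in kb (horizontal axis); colours give the limma call and the dashed line the median of all tested genes. The neighbors run from -1.04 to 0.66 and Man2a2 lies at -2.85.

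The other genes of N-glycosylation were taken by role, 134 in 9 lists, of which 129 were listed and 124 tested. Earlier results of these data were known when the lists were chosen, so the adjusted p-values of their genes are read as a description. In all, 17 were higher, 40 were lower and 67 did not pass, with a median log2 fold change of -0.059 against -0.10 over all tested genes. These shares, and the counts of each list below, are to be read against the 16.7% and 34.6% given above. Median-ratio scaling turned the split over all lists to 30 higher and 21 lower, so the direction of the list counts depends on the scaling. No gene of these lists passed with a change of 2-fold or more on the fitted scale, a size that Man2a2 passed.

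Closest in function to the branching enzymes are those that extend and cap the antennae. Of 15 tested genes placed in this list by role, 4 were higher and 6 were lower. Which glycans each enzyme acts on in these cells was not examined. St6gal1, which caps galactose with sialic acid, stood at 91.8, 100.4 and 97.3 FPKM in control and at 51.3, 52.7 and 50.7 FPKM in deficient libraries. Its groups were apart, and it fell by 0.89 on the log2 scale (SE 0.04, adjusted p 2.17e-07). The galactosyltransferase gene B4galt5 rose from 166 to 255 FPKM (log2 fold change 0.61, SE 0.04, limma adjusted p 4.96e-06). Also higher were St3gal6, another sialyltransferase gene at a low level (0.73, adjusted p 0.00302), B3gnt2, which builds lactosamine repeats (0.56, adjusted p 0.000673), and B4galt1 (0.16, adjusted p 0.00844). B3gnt8, of the same activity as B3gnt2, was lower at -0.47 (adjusted p 7.97e-05), as was B4galt4 at -0.34 (adjusted p 0.0099). The remaining lower genes were the sialyltransferase genes St3gal3 (-0.31, limma adjusted p 0.00233) and St3gal4 (-0.27, adjusted p 0.00382), and B4galt6 (-0.27, adjusted p 0.000202). Fut8, which adds the core fucose, did not pass (-0.17).

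Of the other branching and bisecting genes only Mgat3 was listed, at 0.034, 0.0124 and 0.0226 FPKM in control and 0.0928, 0.171 and 0.0493 FPKM in deficient libraries, under the minimum level for testing. The genes of the mannose 6-phosphate tag, which sends enzymes to the lysosome, gave 2 higher and 1 lower of 5. Igf2r, the large mannose 6-phosphate receptor, rose from 72.2 ± 1.44 to 107 ± 1.08 FPKM (SD, n = 3; log2 fold change 0.56, limma adjusted p 8.34e-07). Gnptab, a subunit of the phosphotransferase that makes the tag, was higher at 0.41 (adjusted p 3.11e-05) and Nagpa, which uncovers it, was lower at -0.32 (adjusted p 0.000407).

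Among earlier steps, precursor assembly gave 1 higher and 5 lower of 23 and the oligosaccharyltransferase 1 higher and 5 lower of 12. Endoplasmic reticulum trimming and quality control gave 2 higher and 3 lower of 15. The lower genes of that list were Manea (-0.24), Lman2 (-0.23) and Mlec (-0.16), and the calls of Manea and Mlec were lost in some alternatives. Dpm1 and Dpm3, subunits of dolichol-phosphate mannose synthase, were lower at -0.75 (adjusted p 0.000334) and -0.67 (adjusted p 0.000796), and so was the glucosyltransferase gene Alg8 at -0.52 (adjusted p 6.99e-05). Of the oligosaccharyltransferase, Tmem258, Dad1 and Krtcap2 were lower at -0.40, -0.29 and -0.21, the calls of Dad1 and Krtcap2 being lost after median-ratio scaling, and the catalytic subunit gene Stt3b was higher at 0.14. Calr, the lectin chaperone calreticulin, rose from 618 to 824 FPKM (log2 fold change 0.41, limma adjusted p 1.71e-06). Man1b1, the alpha-mannosidase of the endoplasmic reticulum, did not pass (0.042).

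Sugar nucleotide supply gave 3 higher and 10 lower of 26 tested genes, beside 16.7% higher and 34.6% lower of all tested genes. Pmm1, a phosphomannomutase, was lower at -0.68 (adjusted p 8.47e-05) and its relative Pmm2 was higher at 0.28 (adjusted p 0.00184). Gmds, of GDP-fucose synthesis, was lower at -0.46, and Slc35a3, a Golgi transporter of the GlcNAc donor, did not pass (-0.095, adjusted p 0.129). Genes of Golgi enzyme retention and Golgi homeostasis gave 3 higher and 5 lower of 14. Cog7 was at -0.40 and Cog3, another subunit of the same tether, at 0.23. After median-ratio scaling 4 genes of this list were higher and 1 was lower.

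The mannosidase genes outside the Golgi had smaller differences in value than Man2a2, and so did the other Golgi mannosidase genes. The Golgi gene Man2a1 (-0.029) differed less than Man2c1 and Manba, given below. Lysosomal and cytosolic mannosidases and breakdown enzymes gave 1 higher and 5 lower of 14. Man2c1, the cytosolic alpha-mannosidase, went from 77.7 to 64.5 FPKM (log2 fold change -0.26, limma adjusted p 0.00026), and the lysosomal alpha-mannosidase genes Man2b1 and Man2b2 did not pass (0.030 and -0.037). Manba, the beta-mannosidase, was higher at 0.22 (adjusted p 0.00181), and Engase and Ngly1, which release N-glycans in the cytosol, were lower at -0.37 and -0.35.

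**Figure D5:**
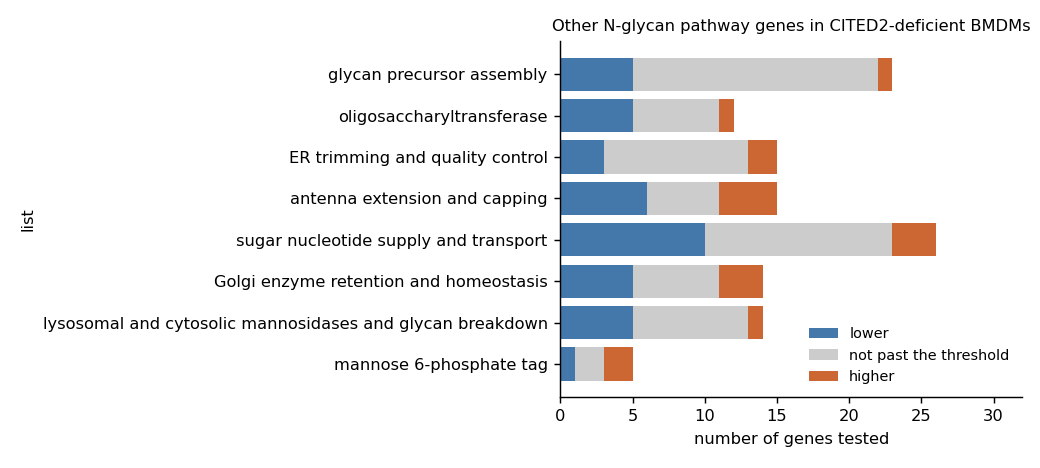
Number of tested genes (horizontal axis, from 0) in each list of other N-glycan pathway genes that were lower, did not pass the adjusted threshold of 0.05 or were higher in CITED2-deficient BMDMs. Genes that did not pass are the largest part in 6 of the 8 lists plotted, and every list holds calls in both directions.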

How the data were processed

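Total RNA from BMDMs (3 libraries per genotype) was depleted of ribosomal RNA and made into stranded libraries; per the methods and the labels, the authors aligned reads with STAR to mm10 and ran Cuffdiff with GENCODE genes. Their versions are not stated in the sources used here. The authors deposited 1 table of FPKM values for 22248 genes, normalized to fragments and transcript length. Samples were grouped by genotype as labelled. Nothing says more about the origin of the 3 replicates, so p-values measure the spread between these libraries.

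FPKM were transformed to log2(FPKM + 1), genes with a mean of at least 1 were kept (11687), and genotypes were compared with limma 3.58.1 (R 4.3.3; eBayes with variance trend, 2-sided) with Benjamini-Hochberg adjustment over all tested genes at 0.05. Fold changes of low genes are understated on this scale. The FPKM returned whole fragments, within 0.02, for 96.1% of 22239 genes matched to GENCODE vM21, including the 10 member genes, and gave the depths. A permutation test of 3 against 3 could not go below 0.1, so none was used. The fit was also run on simulated data. Far fewer genes changed there than passed here, with rises and falls balanced, so that run does not vouch for the calls in these data.

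The members and lists were chosen with earlier results of these data known. Other genes named were up to 3 of the largest rises and falls with groups apart in each list, and the neighbors of Man2a2. Further genes were added to complete counts or to show a role, chosen after their values were seen. These were B4galt1, B4galt6, St3gal3, St3gal4, Fut8, Man1b1, Man2b1, Man2b2 and Slc35a3. Alternatives were other pseudocounts, filters, scalings (quantile, median-ratio), no trend, array weights, a replicate block, limma-voom on recovered fragments, leaving out each library, and a fold minimum of 2. Coordinates are of mm10 (GENCODE vM21).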

Additional observations from a re-analysis of the deposited data

How the results depend on the processing

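Man1a, Man1a2, Man1c1, Man2a2, Mgat4a and Mgat5 kept direction and side of the threshold in all 16 alternatives run on each, and Man2a2 ranged from -2.97 to -2.75 (-2.88 to -2.82 with 1 library left out). The sign of Man2a1 turned after quantile normalization (0.00035) and median-ratio scaling (0.073) and without control replicate 3 (0.0015; -0.054 to 0.0015 with 1 library left out), and that of Mgat2 after median-ratio scaling (0.0015). Among genes near Man2a2 that did not pass, Vps33b turned after quantile normalization (0.041) and median-ratio scaling (0.068) and without control replicate 1 or 3 (0.015 and 0.0027; lowest -0.10 with 1 library left out), Prc1 after quantile normalization (0.023) and median-ratio scaling (0.054) and without control replicate 1 (0.082; lowest -0.11), and Ngrn without deficient replicate 1 (-0.0044; highest 0.12); the cause was not tested. Mgat1 was no longer past the threshold in 6 of its 16 alternatives, and Mgat4b passed it after quantile and median-ratio scaling (0.089 and 0.17). With 1 library left out, 6 to 7 members, 5211 to 5475 genes in all and 47 to 55 pathway genes passed. A fold minimum of 2, which can only lower the counts, left 615 genes, 1 member (Man2a2) and 0 pathway genes (limma). Per coding length the Man2a2 share was 53.2% in control and 12.9% in deficient BMDMs, and with 1 library left out 57.2% to 58.1% and 14.8% to 15.2% on the FPKM scale.

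Libraries with the same replicate number had correlations of their deviations of 0.0138, 0.00784 and 0.0402. Pairs with different numbers ran from -0.0521 to 0.0354. The sources do not say whether the numbers mark a shared culture or batch, and these values cannot settle it. With the replicate block, 5708 genes (1895 higher, 3813 lower), 7 members and 54 pathway genes passed, and of the pathway genes named by rule only Gmppb lost its call. Depth set the counting error of each member, from 449 fragments (Mgat4a, control replicate 2) to 11858 (Man1c1, control replicate 3).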
